A study of Mus musculus with 12 samples.

Results

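The genes described here drive the copying of DNA and the division of cells, followed in muscle progenitors from the head and the trunk of mouse embryos. They were chosen by name: 39 genes, 20 of them acting in DNA replication and 19 in mitosis, each read from the probe set with its highest mean signal. Of these, 38 had a probe set of their own in the array annotation (20 replication and 18 mitosis genes). Ccnb1 was not analysed here. All 38 passed the filter on dim signals, among 7721 genes tested.

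Embryos of the ICR strain carried Myf5Cre and RosaYFP in every group, so the sorted cells are those in which Cre, under the control of Myf5, had at some time switched on the yellow fluorescent protein. The label thus records a history of Myf5 activity and does not show that a cell was still a dividing progenitor. YFP-positive cells came from head or from trunk at embryonic day 9.5, 10.5 or 11.5 (E9.5, E10.5, E11.5), which gave 6 groups and 12 arrays, 2 to a group. Separate animals, litters or pools are not named for the 2 arrays, so p-values reflect the spread between these samples alone, which may be technical. Myf5 itself, whose activity marks the sorted cells, had a log2 signal between 9.04 and 11.16 on the 12 arrays. In head it was below trunk at E9.5 by limma (log2 −0.84, adjusted p = 0.0308) and above it at E10.5 (0.96, adjusted p = 0.0275), and from E9.5 to E11.5 it rose in head by 1.48 (adjusted p = 0.00165) while its trunk value was 0.03 (adjusted p = 0.953). The difference between those changes passed too (1.45, adjusted p = 0.0307), and its part in the results below was not tested.

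A cell prepares to copy its genome in G1, when Cdc6 and Cdt1 load the ring-shaped MCM helicase (Mcm2 to Mcm7) on replication origins. E cyclins with their kinase and the E2F transcription factors then start S phase, in which polymerase alpha and primase begin new strands, the clamp Pcna and its loader hold the polymerases on DNA, and ribonucleotide reductase and thymidylate synthase supply the building blocks. Mitosis is run by Cdk1 with the A and B cyclins, by the Polo and Aurora kinases, by the spindle checkpoint with Bub1 and Mad2l1, and by the anaphase-promoting complex with Cdc20. Replication genes are classical E2F targets, while many mitotic genes are known to be repressed through the CHR element outside their phase and activated through CCAAT boxes bound by NF-Y. Myoblasts leave the cell cycle when they differentiate, with myogenin (Myog) and the inhibitor p21 (Cdkn1a) as classical marks of that step.

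Promoters of 6 of the 12 genes that passed a test below are shown as examples of the motifs known for replication and mitosis genes; they were picked with their matches in view and do not stand for the rest. The sequences are RefSeq's for the GRCm38.p6 assembly, 5′ to 3′ on the gene's own strand, and cover the 250 bases before the first transcribed base (+1). Capitals mark matches, on either strand, to the E2F motif (TTTNGCGC, TTTCCCGC or TTTGGCGG), the CHR (TTTGAA or TTTAAA) and the CCAAT box (CCAAT). None of these motifs contains another, but matches can share bases.
Cdc6, chr11:98907901-98908150, plus strand: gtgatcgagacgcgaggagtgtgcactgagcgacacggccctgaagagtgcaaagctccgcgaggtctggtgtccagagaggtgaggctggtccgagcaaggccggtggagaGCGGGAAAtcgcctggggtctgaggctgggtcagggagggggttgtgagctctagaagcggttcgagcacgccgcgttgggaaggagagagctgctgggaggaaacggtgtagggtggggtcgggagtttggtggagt
Mcm5, chr8:75109259-75109508, plus strand: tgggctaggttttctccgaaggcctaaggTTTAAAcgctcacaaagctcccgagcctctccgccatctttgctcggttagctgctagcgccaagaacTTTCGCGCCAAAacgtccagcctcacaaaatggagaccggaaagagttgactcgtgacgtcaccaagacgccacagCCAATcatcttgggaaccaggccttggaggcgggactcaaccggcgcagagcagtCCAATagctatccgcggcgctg
Rrm2, chr12:24708004-24708253, plus strand: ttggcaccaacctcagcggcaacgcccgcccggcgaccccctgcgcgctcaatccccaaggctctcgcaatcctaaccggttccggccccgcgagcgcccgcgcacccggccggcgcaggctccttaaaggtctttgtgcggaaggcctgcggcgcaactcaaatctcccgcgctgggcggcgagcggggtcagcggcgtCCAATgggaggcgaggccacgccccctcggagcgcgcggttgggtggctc
Plk1, chr7:122159185-122159434, plus strand: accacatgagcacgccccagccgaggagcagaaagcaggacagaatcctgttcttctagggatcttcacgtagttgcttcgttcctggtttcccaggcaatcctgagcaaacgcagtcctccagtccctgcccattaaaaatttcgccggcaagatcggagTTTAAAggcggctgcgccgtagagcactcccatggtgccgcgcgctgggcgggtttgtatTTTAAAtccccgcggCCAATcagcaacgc
Top2a, chr11:99024190-99024439, minus strand: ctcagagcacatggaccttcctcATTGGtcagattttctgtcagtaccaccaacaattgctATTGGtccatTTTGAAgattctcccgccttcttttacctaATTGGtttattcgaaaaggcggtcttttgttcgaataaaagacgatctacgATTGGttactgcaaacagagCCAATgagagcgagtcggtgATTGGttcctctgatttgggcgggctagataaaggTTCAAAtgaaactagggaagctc
Bub1, chr2:127831860-127832109, minus strand: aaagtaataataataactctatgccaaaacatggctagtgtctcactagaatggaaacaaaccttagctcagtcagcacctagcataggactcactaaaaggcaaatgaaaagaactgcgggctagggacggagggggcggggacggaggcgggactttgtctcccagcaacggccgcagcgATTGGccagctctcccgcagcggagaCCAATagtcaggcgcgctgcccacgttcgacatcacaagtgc
Cdc6 shows 1 E2F match at −138. Mcm5 shows 2 that share bases, at −153 and −149, with a CHR at −221. Plk1 has TTTAAA at −89 and −29 with a CCAAT box at −14. Top2a has 6 CCAAT boxes between −227 and −58 and a CHR at −179 and −23. Bub1 holds CCAAT boxes at −68 and −42 and no CHR. In Rrm2 a CCAAT box stands at −50, and TTTAAA begins at +1, just past the bases shown. Among genes that passed but are not shown, the windows described next held 2 E2F matches in Mcm3 and 1 in Cdt1, 1 CCAAT box and no E2F match in Pcna, 1 CHR and no E2F match in Ccne1, and none of the motifs in Mad2l1.

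Over all the genes the motifs were counted in windows of 300 bases, 250 before and 50 from the start site on, which were at hand for 32 of the 38 genes. The E2F motif stood in 7 of 18 windows of the replication genes (38.9%), in 1 of 15 windows of the mitosis genes (6.67%) and in 2.91% of all 32851 windows. The order was the other way round for the CHR, found in 12 of 15 mitosis windows (80%), 5 of 18 replication windows (27.8%) and 27.6% of all windows. CCAAT stood in 12 of 15 mitosis windows (80%), 11 of 18 replication windows (61.1%) and 37.4% of all. A match describes the letters and shows no binding, and a window without one says only that these letters are not in it.

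The median signal of the 12 arrays lay between 108.6 and 110.4 intensity units, and Pearson r over probe sets between the arrays of 1 group was 0.948 to 0.965, a description across features that are not independent. Both replicate 1 arrays of E10.5 stood apart in Xist, a transcript of the inactive X chromosome, with a log2 signal of 7.35 (head) and 6.37 (trunk) where the other 10 arrays had 11.89 to 13.1. Results that use E10.5 are therefore also given without those arrays where this changed a call. Tyms lay below the array's median signal on 9 of 12 arrays and E2f1 on 1. The number of arrays limits the precision: for a single-stage comparison the 95% interval of a gene's difference reached a median of 0.4 (log2) to either side.

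Across single arrays the genes had a somewhat narrower range than the median gene. Over the 12 arrays the range of a gene's log2 signal had a median of 0.82 for the 38 genes and of 1.02 for all genes tested, and ran from 0.47 for Mcm6 to 2.04 for Tyms. Among the 4991 genes with a mean log2 signal no lower than that of Tk1 (8.12), the median range was 0.86, close to that of the 38. Replication genes had a median range of 0.97 and mitosis genes of 0.78. The range of the 6 group means had a median of 0.59 for the 38 genes, 0.66 for all genes and 0.56 for the 4991. It was 0.66 for the replication and 0.56 for the mitosis genes. The median SD within groups was 0.16 for the 38 genes, 0.24 for all and 0.2 for the 4991. In 11 comparisons with limma, adjusted by Benjamini-Hochberg over all 7721 genes at a threshold of 0.05, 12 of the 38 genes passed at least once, 7 replication and 5 mitosis genes. The other 26 passed in none: Mcm2, Mcm4, Mcm6, Mcm7, Rrm1, Tyms, Tk1, Pola1, Prim1, Rfc4, Gins1, Ccne2 and E2f1 among the replication genes, and Ccnb2, Cdk1, Aurka, Aurkb, Bub1b, Cdc20, Mki67, Birc5, Kif11, Kif20a, Nusap1, Ube2c and Cenpa among the mitosis genes.

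**Figure D1:**
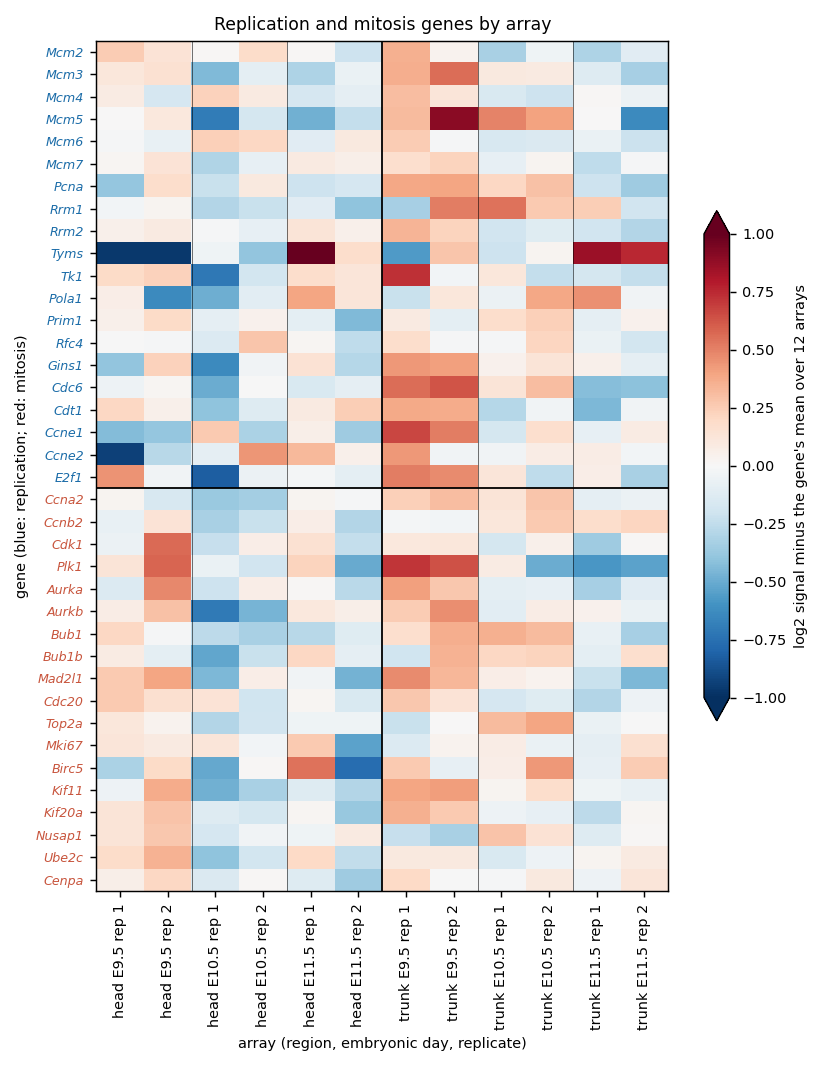
Each row is 1 of the 38 genes (blue names for replication, red for mitosis) and each column 1 of the 12 arrays. The colour gives the log2 signal minus that gene's mean over the 12 arrays, cut at 1 either way. In the upper block the columns of trunk at E9.5 are mostly red, and the row of Tyms goes from 5.15 to 7.18.

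The largest number of calls was in trunk between E9.5 and E11.5, where replication genes fell. Of the 38 genes 8 fell and 0 rose (21.1%), while 13.4% of all genes passed either way, 4.71% lower and 8.73% higher. They were 6 of 20 replication genes (30%) and 2 of 18 mitosis genes (11.1%). The median log2 change was −0.42 over the replication genes, −0.32 over the mitosis genes and −0.01 over all genes, with 18 of 20 and 14 of 18 genes below 0. At an unadjusted p under 0.05 limma counted 17, every one lower. Over all 7721 genes it counted 2029, of which 886 were lower. An array gives RNA levels of a mixed sample, so fewer cycling cells and less of a transcript per cell cannot be told apart, here and in all that follows.

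Among the genes that load the helicase, Cdc6 had a log2 signal of 11.03 and 11.1 on the trunk arrays of E9.5, 10.6 and 10.78 at E10.5 and 10.05 and 10.06 at E11.5. The E11.5 arrays lay below all other trunk arrays, and the replicates differed by less than the stages did. From E9.5 to E11.5 Cdc6 fell 2.02-fold (log2 −1.01 ± 0.18, SE from limma, n = 2 arrays per group, adjusted p = 0.00299). Its partner Cdt1 had 12.74 and 12.73 at E9.5, 12.08 and 12.33 at E10.5 and 11.91 and 12.33 at E11.5. Here the step lay between the first stages, and the later arrays overlap. Cdt1 fell 1.53-fold (log2 −0.62 ± 0.15, adjusted p = 0.0177).

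Of the 6 helicase subunits, Mcm3 and Mcm5 passed. Mcm3 had 11.04 and 11.24 at E9.5, 10.78 and 10.77 at E10.5 and 10.55 and 10.35 at E11.5, with no overlap between stages. It fell 1.61-fold (log2 −0.69 ± 0.17, adjusted p = 0.0177). Mcm5 had 8.63 and 9.22, then 8.81 and 8.72, then 8.32 and 7.68. Its replicates stood farther apart than those of Mcm3, and the fall of 1.9-fold (log2 −0.93 ± 0.28, adjusted p = 0.0465) was just past the threshold. The other subunits had log2 changes of −0.24 (Mcm4), −0.26 (Mcm6), −0.32 (Mcm7) and −0.40 (Mcm2) and did not pass, with adjusted p between 0.0627 and 0.199 by limma. This turned on the probe set for Mcm7 and Mcm2: other probe sets of Mcm7 gave −0.87 (adjusted p over probe sets 0.00986), −0.66 (0.0149) and −0.79 (0.0583), and another of Mcm2 gave −0.57 (0.0247). The 6 subunits act as 1 ring, and their changes had the same sign in trunk.

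At the fork and in nucleotide supply, Pcna and Rrm2 passed. Pcna, the sliding clamp, had 11.71 and 11.72 at E9.5, 11.53 and 11.62 at E10.5 and 11.12 and 10.97 at E11.5, and fell 1.58-fold (log2 −0.66 ± 0.18, adjusted p = 0.0296). Most of its change came after E10.5. Rrm2, the subunit of ribonucleotide reductase whose level is regulated through the cell cycle, had 13.41 and 13.29 at E9.5, 12.88 and 12.95 at E10.5 and 12.88 and 12.78 at E11.5. Its level was thus lower by E10.5 already, and it fell 1.43-fold to E11.5 (log2 −0.52 ± 0.08, adjusted p = 0.00136), the smallest adjusted p among the 38 genes. The other subunit, Rrm1, had a log2 change of −0.06 (adjusted p = 0.91 by limma). Rrm1 was named after its value was seen.

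Both mitosis genes that fell act at entry into mitosis or at its checkpoint. The Polo-like kinase Plk1 had 9.23 and 9.15 at E9.5, 8.6 and 8.02 at E10.5 and 7.93 and 7.98 at E11.5, and fell 2.35-fold (log2 −1.24 ± 0.28, adjusted p = 0.012). This was the most negative change among the 38 genes. The spindle checkpoint gene Mad2l1 had 12.04 and 11.9, then 11.63 and 11.6, then 11.34 and 11.12. The arrays of each stage lay below those of the stage before, and Mad2l1 fell 1.67-fold in all (log2 −0.74 ± 0.19, adjusted p = 0.0199). The proliferation marker Mki67 had 12.33 and 12.5 at E9.5 and 12.38 and 12.63 at E11.5. Its stages overlap, and its log2 change was 0.09 (95% interval −0.34 to 0.52, adjusted p = 0.833). Cdc20, the activator of the anaphase-promoting complex, did not pass either (−0.37, adjusted p = 0.0576).

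Array values did not overlap between E9.5 and E11.5 in trunk for 29 of the 38 genes, lower for 26 (68.4%) and higher for 3 (7.89%). Over all genes the shares were 27.8% lower and 28.4% higher. The count of 8 depended on single arrays, with each omission leaving 1 array in a group: it was 2 without trunk E9.5 replicate 1, 3 without trunk E9.5 replicate 2, 5 without trunk E11.5 replicate 1 and 3 without trunk E11.5 replicate 2. Without an intensity trend in the fit it was 4, and in a fit of these 2 groups alone 5. Cdc6 and Rrm2 passed in every alternative run for them, 22 and 23, and Mcm5 in 9 of 23, with values of −1.25 to −0.61. Many alternatives kept all arrays of both groups compared, or rescaled arrays whose quantiles were already close. They could change little here beyond the estimated spread, so the tally is a limited check.

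**Figure D2:**
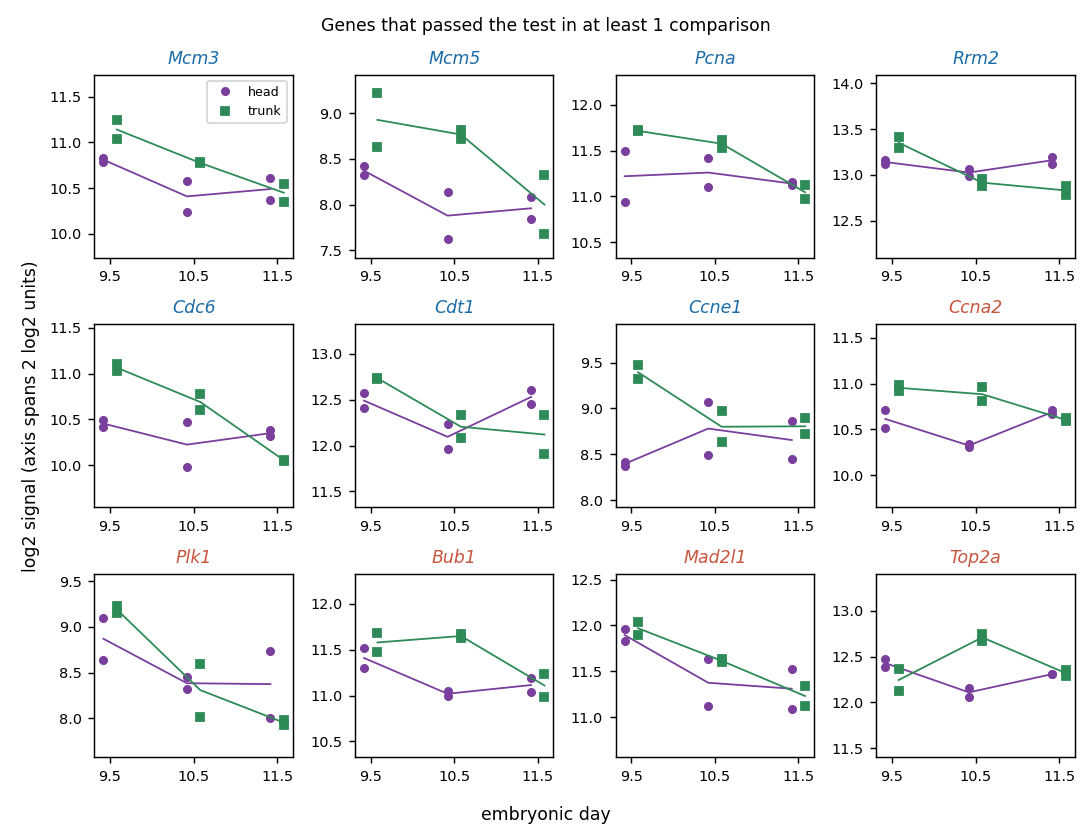
The 12 genes that passed in at least 1 comparison, with the embryonic day on the horizontal axis and the log2 signal on the vertical axis, which spans 2 log2 units in each panel. Points are single arrays and lines join the means of 2 arrays, circles for head and squares for trunk. In trunk Cdc6 runs from 11.03 and 11.1 down to 10.05 and 10.06, while in head it stays between 9.98 and 10.49.

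The first day in trunk, E9.5 to E10.5, held a change in each direction. Of the 38 genes 1 rose and 1 fell (5.26%), against 7.2% of all genes (5.47% higher, 1.74% lower), so the count stands near the background. Rrm2 fell 1.35-fold (log2 −0.44 ± 0.08, adjusted p = 0.00741). Top2a, the topoisomerase that untangles sister chromatids, had 12.13 and 12.36 at E9.5 and 12.67 and 12.75 at E10.5, and rose 1.38-fold (log2 0.47 ± 0.1, adjusted p = 0.0201). Its E11.5 arrays were back at 12.29 and 12.35, within the spread of E9.5. The median change was −0.31 over the replication genes and −0.12 over the mitosis genes. Values did not overlap for 21 genes that were lower (55.3%) and 4 that were higher (10.5%), against 28.4% and 29.2% of all genes. Both calls were lost without an intensity trend and without both E10.5 replicate 1 arrays, and both also without trunk E9.5 replicate 1 or trunk E10.5 replicate 1. Without trunk E10.5 replicate 2, 1 of the calls was left.

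On the second day in trunk, E10.5 to E11.5, 0 of the 38 genes passed in limma and 5 had an unadjusted p under 0.05, all lower. Of all 7721 genes 0.0259% passed, and 601 had such an unadjusted p, 285 of them lower. The median change was −0.1 for replication and −0.14 for mitosis genes. Values did not overlap for 16 genes that were lower (42.1%) and 3 that were higher (7.89%), where the shares over all genes were 23.1% and 21.6%.

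In head the same interval gave no call. From E9.5 to E11.5, 0 of the 38 genes passed in limma, where 4.78% of all genes did (2.75% higher, 2.03% lower). At an unadjusted p under 0.05 it counted 6, 2 higher and 4 lower. Over all 7721 genes it counted 1367, 742 higher and 625 lower. The median log2 change was −0.07 over the replication genes and −0.28 over the mitosis genes, of which 16 of 18 lay below 0. Over the 38 genes the 95% intervals ran from −1.1 to 2.56. Without an intensity trend in the fit 1 gene rose, and without head E11.5 replicate 1, 1 gene fell. Array values did not overlap for 15 genes that were lower (39.5%) and 4 that were higher (10.5%), against 21.8% and 22.5% of all genes.

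The 8 genes that fell in trunk had head values between −0.59 and 0.04, and none of them passed. They were selected by their fall in trunk, which by itself favours a smaller change in head. Cdc6 had 10.42 and 10.49 at E9.5 and 10.32 and 10.38 at E11.5, a log2 change of −0.11 (95% interval −0.49 to 0.28, adjusted p = 0.826). Rrm2 had 13.12 and 13.16 at E9.5 and 13.2 and 13.12 at E11.5, with a change of 0.02 (−0.16 to 0.2, adjusted p = 0.928). The stages overlapped for Rrm2, and for Cdc6 they lay next to each other. For Pcna the difference was −0.08 (95% interval −0.47 to 0.31) and for Cdt1 0.04 (−0.29 to 0.37), with overlapping stages in both. Mcm3 went from 10.79 and 10.83 to 10.37 and 10.61 (−0.32, −0.69 to 0.05, adjusted p = 0.362). Mcm5 went from 8.32 and 8.42 to 7.84 and 8.08 (−0.41, −1.01 to 0.2, adjusted p = 0.505). In these helicase genes the E11.5 arrays lay below those of E9.5 without overlap, as in trunk. Plk1 had 8.64 and 9.1 at E9.5 and 8.74 and 8.01 at E11.5, a change of −0.49 (−1.1 to 0.11, adjusted p = 0.398). Mad2l1 went from 11.83 and 11.96 to 11.53 and 11.09, a change of −0.59 that did not pass (adjusted p = 0.103). For both of these mitosis genes the head arrays of E11.5 stood farther apart than those of E9.5.

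Over single days head gave no call either. From E9.5 to E10.5, 0 of the 38 genes passed in limma, against 0.958% of all genes (0.699% higher, 0.259% lower). An unadjusted p under 0.05 was found for 12, 10 of them lower, against 1208 of all 7721 genes, 612 of them lower. All 18 mitosis genes lay below 0 with a median of −0.33, and the median of the replication genes was −0.13. The E10.5 arrays lay below those of E9.5 without overlap for 23 genes (60.5%) and above them for 5 (13.2%), against 22.3% and 20.5% of all genes. From E10.5 to E11.5, 0 passed in limma, and 0.984% of all genes did (0.531% higher, 0.453% lower). Here 6 had an unadjusted p under 0.05, 5 of them higher, against 1305 of all 7721 genes, 697 of them higher. The median was 0.08 over the replication and 0.11 over the mitosis genes. Values did not overlap for 11 genes that were higher (28.9%) and 3 that were lower (7.89%), against 24% and 20.7% of all genes. Replicate 1 of head at E10.5 is an array of low Xist, and its part in the overlap counts was not tested.

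Tyms and Aurkb, named after their values were seen, came nearest to passing in head. Tyms, thymidylate synthase, had 5.15 and 5.15 at E9.5, 6.07 and 5.72 at E10.5 and 7.18 and 6.29 at E11.5. The stages did not overlap. The change was 1.59 ± 0.44 (95% interval 0.62 to 2.56, adjusted p = 0.0648), a log difference taken against E9.5 signals far below the array's median. Its only arrays above that median were 3 of E11.5, so it passed the filter through the stage where it is high, and the size of the change is not a measured fold. In trunk its change was 0.95 (adjusted p = 0.198). Both values are above 0, where most replication genes in trunk were below it. The Aurora kinase gene Aurkb, whose product corrects attachments of chromosomes to the spindle, had 9.86 and 10.08 at E9.5, 9.08 and 9.32 at E10.5 and 9.89 and 9.85 at E11.5. The E10.5 arrays lay below all other head arrays. The first day gave −0.77 ± 0.18 (adjusted p = 0.0694) and the second 0.67 (adjusted p = 0.0933).

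**Figure D3:**
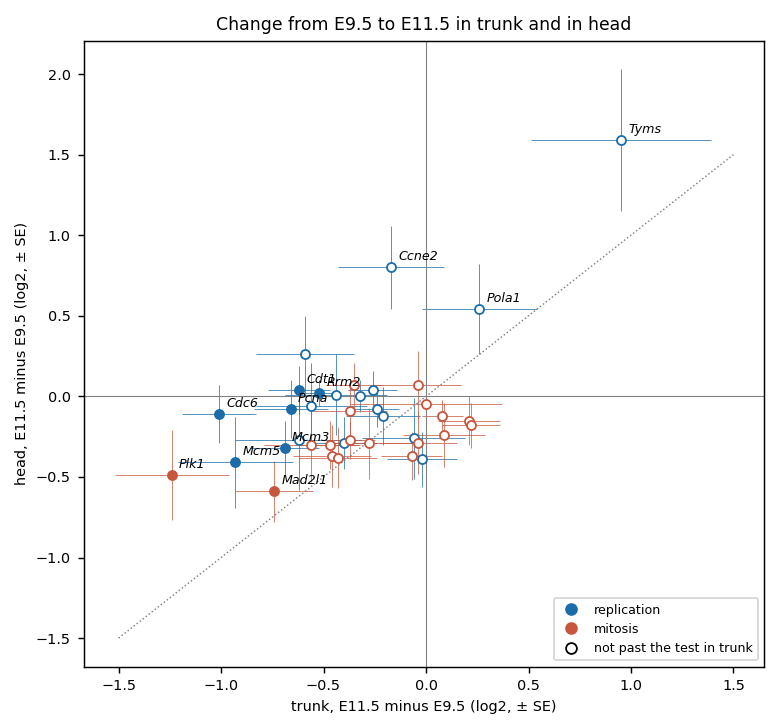
For each of the 38 genes the log2 difference between E11.5 and E9.5 in trunk (horizontal) and in head (vertical), with bars of 1 SE in both directions, blue for replication and red for mitosis. Filled points passed in trunk, and the dotted line marks equal change. The 8 filled points lie left of 0, between −1.24 and −0.52, and all above the dotted line. They were selected by their fall in trunk, which favours that side of the line, so their place is no test of a difference between regions.

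Whether the change over both days differed between head and trunk was tested as a difference of differences. Rrm2 alone passed, 1 of 38 genes (2.63%), where 1.48% of all genes passed either way, 0.272% in that direction and 1.2% in the other. Its change was more positive in head by log2 0.54 ± 0.11 (95% interval 0.29 to 0.79, adjusted p = 0.04). The call was lost under 18 of 23 alternatives, among them each omission of 1 array other than trunk E9.5 replicate 2, with an adjusted p of up to 0.274. For Cdc6 the difference was 0.91 (adjusted p = 0.117) and for Plk1 0.74 (adjusted p = 0.497), so a difference between the regions was not shown for them. Over the replication genes the median difference was 0.41 with 18 of 20 above 0, and 6 had an unadjusted p under 0.05. Over the mitosis genes it was 0.07 with 10 of 18 above 0 and 0 genes at an unadjusted p under 0.05 in limma. Of all 7721 genes 943 had such a p, 345 above 0 and 598 below. The comparison sets the same trunk and head arrays against each other as the separate changes do, so it adds no independent samples.

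At E9.5 head stood below trunk in 1 of the 38 genes (2.63%), against 5.92% of all genes either way, 4.68% higher and 1.24% lower. A single call is too few to set against these shares. The gene was Ccne1, cyclin E1, which with Cdk2 starts S phase. It had 8.37 and 8.42 in head and 9.47 and 9.32 in trunk, and the regions did not overlap. Ccne1 was 2-fold lower in head (log2 −1 ± 0.24, 95% interval −1.52 to −0.48, adjusted p = 0.0265). At E10.5 head had 9.07 and 8.49 and trunk 8.63 and 8.97, which overlap. The call was lost without any 1 of the 4 arrays of E9.5, with an adjusted p of 0.0824 to 0.173, and the count was 2 without head E10.5 replicate 1 or head E10.5 replicate 2. Its paralog Ccne2, named after its value was seen, had 8.39 and 9.05 in head and 9.76 and 9.29 in trunk, a difference of −0.81 that did not pass (adjusted p = 0.112).

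Over all replication genes the E9.5 difference had a median of −0.25 with 18 of 20 below 0, and over the mitosis genes of −0.08. Head lay below trunk without overlap for 16 of the 38 genes (42.1%) and above it for 4 (10.5%), against 21.4% and 22.3% of all genes. At this stage 12 of 14 neuronal, 8 of 13 endothelial, 7 of 11 epithelial and 2 of 5 leukocyte marker genes were higher in head. The connective tissue list had 5 higher and 2 lower of 14, and the muscle differentiation list 4 higher and 2 lower of 22. Their part in the result was not tested.

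At E10.5 the calls lower in head fell on mitosis genes, while most replication genes lay below 0 too. Of the 38 genes 3 were lower and 0 higher in head (7.89%), all mitosis genes (16.7% of 18), against 4.52% of all genes either way, 2.45% higher and 2.07% lower. The median was −0.28 over the mitosis genes and −0.2 over the replication genes. In limma 13 of the 38 had an unadjusted p under 0.05, 11 lower, against 1850 of all 7721 genes, 916 lower. Below 0 lay 14 of 18 mitosis and 15 of 20 replication genes. The most negative difference was that of the replication gene Mcm5 (−0.89), which did not pass (adjusted p = 0.0874 by limma). Top2a had 12.06 and 12.16 in head and 12.67 and 12.75 in trunk, and was 1.52-fold lower in head (log2 −0.6 ± 0.1, adjusted p = 0.00841). Bub1, a kinase of the spindle checkpoint, had 11.05 and 10.99 in head and 11.67 and 11.63 in trunk, a 1.55-fold difference (log2 −0.63 ± 0.15, adjusted p = 0.0333). Ccna2, cyclin A2, which acts in S phase and at entry into mitosis, had 10.31 and 10.34 in head and 10.81 and 10.96 in trunk, and was 1.47-fold lower (log2 −0.56 ± 0.14, adjusted p = 0.0473). In each of the 3 genes the regions stood apart by more than the replicates did.

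The 3 calls at E10.5 were all lost without head E10.5 replicate 1, without trunk E10.5 replicate 1, without trunk E10.5 replicate 2, without both replicate 1 arrays, which are the arrays of low Xist, and without an intensity trend in the fit. Ccna2 alone was lost under 19 of 23 alternatives. The 3 differences kept their sign and lay between −0.66 and −0.45 under all alternatives. Another probe set of Ccna2 gave −0.36 (adjusted p over probe sets 0.289) and another of Bub1 −0.26 (0.679). Head lay below trunk without overlap for 19 of the 38 genes (50%) and above it for 4 (10.5%), against 30.2% and 28.2% of all genes. At E10.5, 8 of 22 muscle differentiation genes were lower in head, with a summed signal of 6239 to 7224 in head and 15450 to 15676 in trunk. Of 13 endothelial genes 7 were higher in head, with summed signals of 6654 to 6793 against 1595 to 1879. Of 11 epithelial genes 5 were higher (3028 to 3886 against 1195 to 1789). Of 5 leukocyte genes 3 were higher (1459 to 2960 against 553 to 619), and of 14 neuronal genes 1. Of 14 connective tissue genes 3 were lower in head, and the neural progenitor and erythroid lists had no call. Their part in the result was not tested.

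At E11.5 no difference passed. Of the 38 genes 0 passed in limma, against 2.07% of all genes (0.712% higher, 1.36% lower). An unadjusted p under 0.05 was found for 2, both higher in head, against 917 of all 7721 genes, 474 of them higher. The medians were 0.06 over the replication and 0.01 over the mitosis genes, with 95% intervals of single genes between −1.15 and 1.02. Top2a had 12.31 and 12.31 in head and 12.29 and 12.35 in trunk, and Bub1 11.04 and 11.19 in head and 11.24 and 10.98 in trunk. The regions overlapped in both genes. Head was above trunk without overlap for 8 genes (21.1%) and below it for 5 (13.2%), against 21.9% and 18.5% of all genes.

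Over the mean of the 3 stages 0 of the 38 genes passed in limma, against 10.5% of all genes (6.85% higher, 3.61% lower). At an unadjusted p under 0.05 limma counted 12, all lower in head, against 1882 of all 7721 genes, 854 of them lower. Below 0 lay 29 of the 38, with a median of −0.13. The count of 0 became 2 without head E10.5 replicate 2, trunk E9.5 replicate 1 or trunk E11.5 replicate 2. It became 1 without head E10.5 replicate 1 or head E9.5 replicate 2, each call being lower in head. The intervals of single genes ran from −0.94 to 0.41. In 0 genes did all head arrays lie above or all below the trunk arrays of every stage, which held for 1.66% of all genes above and 1.19% below. Among the brightest genes that passed nowhere, Mki67 had a mean difference of 0.01 (95% interval −0.24 to 0.26). Mcm7, of the helicase, differed by −0.02 (adjusted p = 0.836) and Mcm4 by −0.01 (adjusted p = 0.964).

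**Figure D4:**
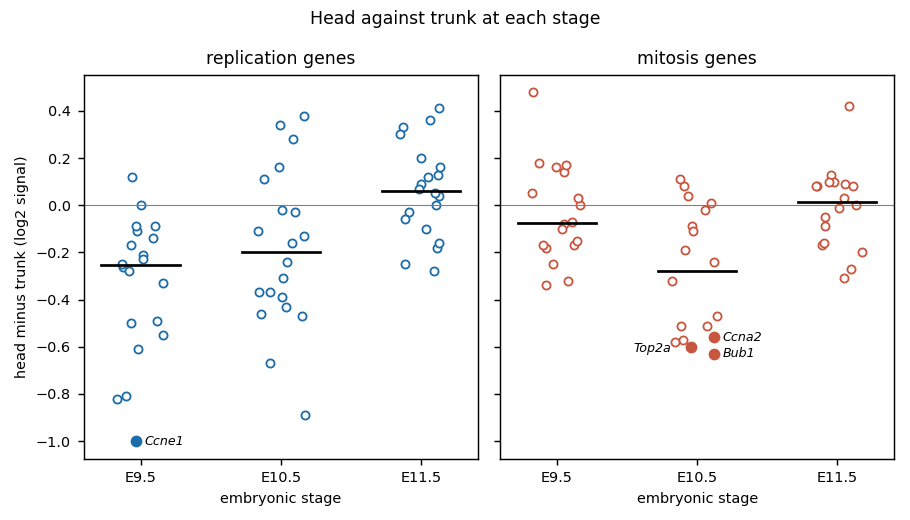
Head minus trunk (log2 signal) for each of the 20 replication genes (left) and 18 mitosis genes (right) at E9.5, E10.5 and E11.5. Filled points passed the test and are named, open points did not, and the black bar is the median. The bars lie at −0.25, −0.2 and 0.06 on the left and at −0.08, −0.28 and 0.01 on the right.

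The replication and the mitosis genes can be set side by side as the median over a class of each gene's log2 signal minus its mean over the 12 arrays. In trunk the replication median was 0.35 and 0.24 at E9.5, −0.03 and 0.08 at E10.5 and −0.07 and −0.15 at E11.5. The mitosis median was 0.22 and 0.2, then 0.07 and 0.09, then −0.09 and 0. Within trunk both classes were highest at E9.5, with the replication class the higher on each of those arrays. In head the replication median was 0.01 and 0.04 at E9.5, −0.26 and −0.07 at E10.5 and 0.01 and −0.09 at E11.5, and the mitosis median was 0.1 and 0.24, then −0.28 and −0.19, then 0.03 and −0.26. In head the arrays of E10.5 and E11.5 overlapped in both classes. Between E9.5 and E11.5 the replication class moved by −0.16 relative to the mitosis class in trunk and by 0.22 in head, a description with no test.

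Other genes of both processes were taken from lists of textbook members. Of 48 further replication genes 8 fell and 0 rose in trunk from E9.5 to E11.5 (16.7%, against 4.71% of all genes lower and 13.4% either way), with a median of −0.35. The leading ones were Orc1, of the origin recognition complex (log2 −1.04, adjusted p = 0.00332), Mcm10, which helps to activate the helicase (−0.71, adjusted p = 0.0116), and Dut, which clears dUTP (−1.04, adjusted p = 0.0214). In head 0 of the 48 passed in limma with 4 at an unadjusted p under 0.05 (1367 of all 7721 genes), and the median was −0.04. Of 56 further mitosis genes 4 fell in trunk (7.14%, near the 4.71% of all genes) with a median of −0.23: the centrosomal kinase gene Nek2 (−1.23, adjusted p = 0.00203), Cdca5, which encodes the cohesion factor sororin (−0.7, adjusted p = 0.0106), Lin9 of the MuvB complex (−1.26, adjusted p = 0.0249), and Ccnf, cyclin F, named after its value was seen (−0.73, adjusted p = 0.0411). Lin9 lay below the array's median signal on 2 of the trunk arrays compared, so the size of its fall is not a measured fold. In head 0 of the 56 passed in limma and the median was −0.26. There 13 had an unadjusted p under 0.05, all lower, against 625 of all 7721 genes lower at that p. At E10.5, 2 of the 56 were lower in head than in trunk (3.57%, against 2.07% of all genes lower and 4.52% either way), the kinetochore gene Cenpf (−0.82, adjusted p = 0.032) and Cks2, which binds cyclin-dependent kinases (−0.38, adjusted p = 0.0397). Over the mean of the stages 2 of the 56 were lower in head (3.57%), near the 3.61% of all genes lower. They were Tacc3 (−0.48, adjusted p = 0.0409) and Melk (−0.39, adjusted p = 0.0496).

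Genes of cell cycle exit were measured on the same arrays. The list also holds the D cyclins, which promote entry into S phase, so it is not made of exit genes alone. From E9.5 to E11.5, 5 of 16 rose in head (31.2%), against 2.75% of all genes higher. In trunk 5 rose and 1 fell (37.5% together), against 8.73% of all genes higher and 4.71% lower. Among those that rose in trunk was the D cyclin Ccnd3, named after its value was seen (0.94, adjusted p = 0.0162). Cdkn1c, the inhibitor p57, rose in head by 1.33 ± 0.17 (adjusted p = 0.000972) and in trunk by 1.86 (adjusted p = 4.92e-05). Cdkn1a rose by 1.62 (adjusted p = 0.0373) and 2.07 (adjusted p = 0.00538). The retinoblastoma gene Rb1, which restrains E2F factors, rose by 1.09 (adjusted p = 0.00201) and 0.66 (adjusted p = 0.0149). Myog went from 5.34 and 4.66 to 10.63 and 10.36 in head and from 6.81 and 7.92 to 9.69 and 10.14 in trunk, with 8.39 and 7.83 in head and 9.24 and 9.43 in trunk at E10.5. Cdkn1c, Cdkn1a, Rb1 and Myog thus rose in both regions. The rise of Myog was larger in head (difference of log2 2.95, adjusted p = 0.0133 by limma). Both head arrays of E9.5 lay below the array's median in Myog, so the size of that difference is not a measured fold. For the replication genes the regions were compared gene by gene above, with Rrm2 alone past the threshold.

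Marker genes of other cell types were counted on the same fit. From E9.5 to E11.5, 8.73% of all genes passed as higher and 4.71% as lower in trunk, and 2.75% and 2.03% in head. In trunk from E9.5 to E11.5, 21 of 22 muscle differentiation genes rose, with a summed signal of 2202 to 4874 at E9.5 and of 19497 to 26912 at E11.5. On both E9.5 arrays 14 of the 22 lay below the median signal (16 in head), and 7 of the 29 listed were not tested, so many passed the filter through the later stages where they are high. Of 14 neuronal genes 12 rose (966 to 1479 against 7873 to 10815), of 14 connective tissue genes 9 rose (14178 to 17414 against 32413 to 34819), and of 11 epithelial genes 6 fell (2509 to 2976 against 1071 to 1454). Of the neuronal genes 8 lay below the median signal on both E9.5 arrays of trunk. The endothelial list had 1 of 13 genes higher (938 to 987 against 1028 to 1453), the leukocyte list 2 of 5 (367 to 441 against 729 to 814), the neural progenitor list 2 higher and 1 lower of 6, and the erythroid list 0 of 6, with no gene at an unadjusted p under 0.05 in limma. In head 18 of 22 muscle genes rose (4433 to 4496 against 19008 to 25149). There 9 of 11 epithelial genes fell (7481 to 8345 against 1910 to 1932), while 2 neuronal genes rose and 1 fell. The connective tissue list in head had 0 higher and 1 lower of 14, the neural progenitor list 1 higher and 2 lower of 6. Leukocytes had 1 higher of 5, erythroid cells 1 lower of 6 and endothelium 0 of 13. The change differed between regions for 5 of 14 connective tissue genes, all less positive in head, against 1.2% of all genes in that direction.  The part of these cells in the results was not tested.

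**Figure D5:**
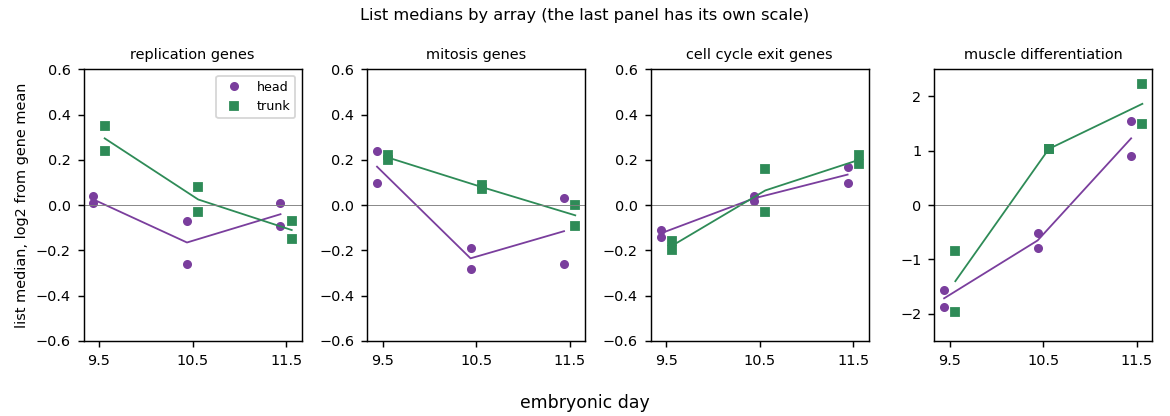
Median over each list of a gene's log2 signal minus its mean over the 12 arrays, by embryonic day, for replication genes, mitosis genes, cell cycle exit genes and muscle differentiation genes, the last on a wider axis. The cell cycle exit list includes the D cyclins. Points are single arrays and lines join the means of 2 arrays, circles for head and squares for trunk. The muscle list climbs from −1.96 and −0.84 to 2.23 and 1.5 in trunk, while the replication list goes from 0.35 and 0.24 to −0.07 and −0.15.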

How the data were processed

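Per the labels, sorted cells gave total RNA by QIAzol extraction, which was amplified (MessageAmp) and labelled with biotin. The deposited values are probe set signals, an intensity on a linear scale, made by the authors with MAS5 and Affymetrix Expression Console per the submitters' processing notes. Versions and any later normalization are not given in the sources used here. Quantiles differed between arrays by at most 0.0347 (log2), so none was added. MAS5 subtracts mismatch signal, which makes dim values noisy.

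Of 22690 probe sets 64 controls were left out, as were those naming several genes (691) or none (1555). Of the 20380 left, 20351 were matched to RefSeq's gene table by Entrez identifier and 0 symbols changed. Probe sets above the array's median on at least 2 of 12 arrays were tested, and the one of highest mean stood for its gene. Limma 3.58.1 in R 4.3.3 fitted log2 signal with 1 mean for each of the 6 groups and a trend of the variance with intensity (two-sided tests, with 6 residual degrees of freedom and 5.87 from the prior). Differences are head minus trunk or later minus earlier. The fit was tested on simulated data.

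The genes and lists were chosen with earlier results of these data known. Genes are named by a rule: those that passed in any comparison, up to 4 of highest mean that did not, up to 3 of smallest p per direction of other lists, and Myog. Any other is marked where it is named. Alternatives were quantile normalization, median centring, other filters, log2(signal + 16), the mean of a gene's probe sets, other model designs and single arrays left out.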

Additional observations from a re-analysis of the deposited data

Results flagged for a closer look

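The change of Rrm2 from E9.5 to E11.5 differed between the regions: it was higher in head than in trunk by log2 0.54 ± 0.11 in the test of that difference by limma (adjusted p = 0.04), with arrays at 13.12, 13.16, 13.2 and 13.12 in head and at 13.41, 13.29, 12.88 and 12.78 in trunk. Rrm2 has other probe sets that passed the filter. They gave a difference of 0.67 (adjusted p over probe sets 0.11) and 0.9 (0.487), the same sign with no call.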

How the results depend on the processing

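The 15 calls reported for single genes kept their direction in the alternatives run for them; genes that did not pass were not followed gene by gene. Quantile normalization, median centring, a stricter filter and log2(signal + 16) kept each count of calls within 1.5 times the count reported. For head against trunk at E10.5 the count went from 3 to 1 with the mean of a gene's probe sets, 1 without probe sets of the suffixes _s, _x and _a, 0 without an intensity trend and 0 when both E10.5 replicate 1 arrays were dropped, which was chosen after seeing the data. For trunk from E9.5 to E10.5 it went from 2 to 1, 0 and 0 under the last 3 of these. For trunk from E9.5 to E11.5 it went from 8 to 4 without a trend and to 5 in a fit of the groups compared, and for head over the same interval from 0 to 1 without a trend. The single call of the difference between the regions became 0 with no filter, the mean of probe sets, no suffixed probe sets, no trend, only the groups compared, the replicate block, and both E10.5 replicate 1 arrays left out.

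Leaving out 1 array at a time gave 0 to 2 calls for the mean of the stages, 0 to 2 at E9.5, 0 to 3 at E10.5, 0 to 0 at E11.5, 0 to 0 in head for each single day, 0 to 1 in head from E9.5 to E11.5, 0 to 3 and 0 to 0 in trunk for the first and second day, 2 to 9 in trunk from E9.5 to E11.5 and 0 to 1 for the difference between regions. An omission leaves a lone array that is assumed to vary like the other groups. Without suffixed probe sets Top2a had no probe set past the filter and was not tested, so its calls dropped out of those counts. Apart from that and the omissions, which leave fewer samples, the cause of these shifts was not tested.

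The groups share replicate numbers. The correlation between 2 groups of the difference between replicates 2 and 1 lay between −0.3 and 0.17 (median 0), over 0.1 in 2 of 15 pairs. It cannot show whether same-numbered arrays of a stage share embryos or a litter, which the labels do not name. At E10.5 both replicate 1 arrays had low Xist (log2 7.35 in head and 6.37 in trunk). With the replicate block the counts were 8 for trunk from E9.5 to E11.5 (7 of them shared with the fit without it), 3 for trunk from E9.5 to E10.5, 2 for head against trunk at E10.5, 1 at E9.5 and 0 for the other comparisons. Relative to mitosis genes, the replication genes' change lay between −0.17 and −0.14 in trunk and 0.21 and 0.24 in head under the alternatives. Signals near the array's median limit Tyms and E2f1.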

Other observations

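Of the 38 genes 17 had several probe sets past the filter, and in 7 calls another probe set of the gene could be compared; 0 had the opposite sign. For Rrm2 in trunk from E9.5 to E11.5 the chosen probe set gave −0.52, and its other probe sets gave −0.8 (adjusted p over probe sets 0.00148) and −1.13 (0.0302). For Cdt1 another gave −0.92 (0.0207) against −0.62. For Mcm3, with −0.69 from the chosen one, the others gave −0.81 (0.0279), −0.68 (0.301) and −0.05 (0.96), so 1 of these 3 passed and 1 was close to 0. Rrm1 and Nusap1 each had another probe set of opposite sign over this interval (0.43 against −0.06, and −0.21 against 0.22), and none of these values passed.

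Nusap1, which bundles spindle microtubules and was named after its values were seen, was the gene nearest to the threshold in trunk over the first day. Its log2 signal was 10.79 and 10.7 at E9.5, 11.31 and 11.17 at E10.5 and 10.89 and 11.03 at E11.5. The change over the first day was 0.5 (adjusted p = 0.0537 by limma). Cyclin D2 (Ccnd2) is a D cyclin placed in the exit list though it promotes entry into S phase. It was lower in head over the mean of the stages (log2 −0.44, adjusted p = 0.00139 by limma). Among single stages it passed at E11.5 alone (−0.76, adjusted p = 0.00687).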
